A study of Mus musculus with 9 samples.

Results

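GABAergic amacrine cells other than starburst cells are described here, across genes and across 9 mice. The cells were chosen by their own counts of unique molecular identifiers (UMIs, single RNA molecules counted once). A cell was taken when at least 2 of the transcription factor genes Pax6, Tfap2a and Tfap2b had a UMI and when Gad1 and Gad2 together held at least 2 of every 10000 UMIs. Gad1 and Gad2 also had to exceed Slc6a9, the glycine transporter of glycinergic cells, and fewer than 2 of the cholinergic genes Chat, Slc18a3 and Slc5a7 could have a UMI. By this rule, 2018 of 31089 cells, or 6.49%, were GABAergic amacrine cells.

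The study deleted miR-204 and miR-211 in the retinal pigment epithelium (RPE) and profiled single cells 6 months after induction. All mice carried the same alleles, an inducible RPE65-ERT2-Cre together with floxed miR-211 and floxed miR-204. From postnatal day 28, 5 dKO mice received tamoxifen at 75 mg/kg in corn oil on 5 consecutive days, and 4 control mice received corn oil alone. Both retinas of a mouse were pooled, and all mice went through barcoding together in 8 sublibraries. The control mice are S01 to S04 and the dKO mice are S05 to S09. The Cre is driven in RPE, so the alleles in amacrine cells were not the target, and an effect of tamoxifen and an effect of the deletion cannot be told apart in this design. Neither microRNA gene is among the 37725 genes of the matrix, so their loss cannot be read from these cells. The labels of S06 and S07 share 1 animal number, and they were taken as different mice. Cells of S06 and S07 also fall on opposite sides of the split in Xist and Y-linked genes given below. The floxed genes encode the mature forms below, which are shown because their seed pairs with target transcripts. RefSeq gives both as 22 bases (table build GRCm38.p6), and the capitals mark the seed, bases 2 to 8.
mmu-miR-204-5p: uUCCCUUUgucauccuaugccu
mmu-miR-211-5p: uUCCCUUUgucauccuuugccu
Both share that seed and differ at 1 base, position 17 from the 5′ end.

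Amacrine cells are interneurons of the inner retina whose processes contact bipolar cells, ganglion cells and one another in the inner plexiform layer. The GABAergic ones are usually medium-field or wide-field cells, and they give lateral inhibition to bipolar terminals and ganglion cell dendrites. Many subtypes release a neuropeptide, dopamine or nitric oxide beside GABA, and these second transmitters are the classical way to tell the subtypes apart. Starburst cells, which release acetylcholine and GABA, are a separate kind, and the rule leaves them out.

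The cells came from every mouse in unequal numbers. Control mice S01 to S04 gave 340, 309, 240 and 26 cells, and dKO mice S05 to S09 gave 63, 348, 122, 313 and 257. S04 gave the fewest in the control group and S05 the fewest in the dKO group. A mouse's median depth per GABAergic amacrine cell lay between 22758.5 and 31619.5 UMIs, and its summed depth between 608827 UMIs in S04 and 12251268 in S06. Over all mice the median was 26658 UMIs and 5634 genes per cell, against 4770.5 UMIs in 14816 reference rods. These are cells with at least 5 of 6 rod genes and at least 1% of UMIs on them. Cells with at least 2 of Pax6, Tfap2a and Tfap2b, and reference Müller glia, were left out of the rods. Low shares of amacrine genes in rods are thus fixed in part by that choice. Each of the 8 sublibraries gave 223 to 278 of the cells. No full cell name occurred more than once, and no combination of barcodes occurred in more than 1 mouse. However, 2808 combinations occurred in more than 1 sublibrary, covering 5920 cells (19.0%) and 383 GABAergic amacrine cells (19.0%). Among these, 40 shared their combination with another GABAergic amacrine cell of a different sublibrary.

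Mice S04, S05 and S07 stood apart before any comparison of groups. Reference rods were 84.8%, 70.2% and 74.3% of their cells, against 28.6% to 41.6% in the other mice. Rod RNA was also higher inside their GABAergic amacrine cells. The 6 rod genes held 0.0414%, 0.0887%, 0.0368% and 0.509% of the UMIs of these cells in S01 to S04, and 0.373%, 0.0658%, 0.384%, 0.0597% and 0.0390% in S05 to S09. The 3 highest values belong to S04, S05 and S07, 1 control and 2 dKO mice. Xist, the RNA that silences an X chromosome in female cells, was at 26.7 to 39.4 CPM (UMIs of a gene scaled to a common total) in the same 3 mice and at 1345 to 1467 in the other 6. Y-linked genes showed the opposite split, with 395 to 452 CPM in those 3 mice and 2.24 to 4.15 in the others. By these levels S04, S05 and S07 read as male and the other 6 mice as female. Sex and the high share of rods thus cannot be told apart among these mice. Results without the 3 mice rest on mice that read as female. The medians of gene lists and most gene results that rest on the groups are therefore given with all 9 mice and without S04, S05 and S07.

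**Figure D1:**
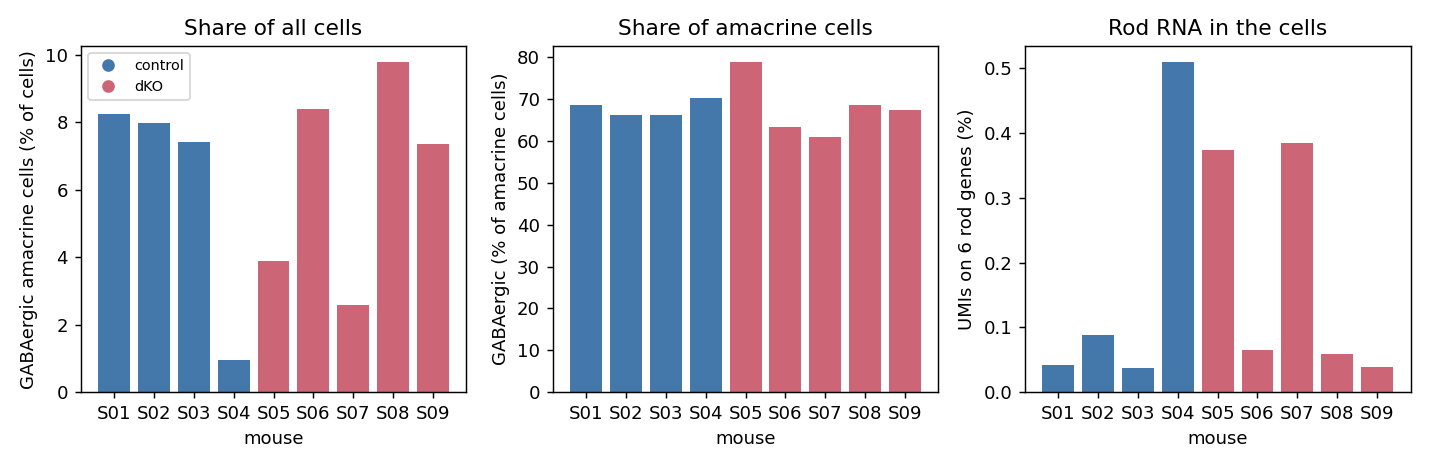
Bars give, for each mouse, GABAergic amacrine cells as a percent of all cells (left), the same as a percent of all amacrine cells (middle) and the percent of UMIs in these cells that fall on 6 rod genes (right), with control mice in blue and dKO mice in red. S04, S05 and S07 are low on the left and high on the right, while in the middle all mice lie between 61.0% and 78.8%.

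The values that the rule used describe the cells and test nothing. Gad1 and Gad2, the enzymes that make GABA from glutamate, had a median of 8.24 UMIs per 10000 (quartiles 5.85 and 10.9, range 2.03 to 31.7). Both genes were detected in 1862 cells (92.3%), Gad1 alone in 137 (6.79%) and Gad2 alone in 19 (0.942%). All 3 transcription factors were detected in 1407 cells (69.7%). Slc6a9 had no UMI in 1432 cells, and 154 cells carried 1 cholinergic gene. At the edge of the rule, 83 cells lay just inside, with 2 to under 3 Gad UMIs per 10000, and 79 lay just outside, with 1 to under 2. Slc32a1, the transporter that loads GABA and glycine into vesicles, was at 34.1 CPM just inside and 12.1 just outside, against 71.3 over all GABAergic amacrine cells. The edge cells thus lie below the other cells in this gene.

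Markers outside the rule were read as a check of the name. Slc32a1 was at 71.3 CPM in GABAergic amacrine cells, 49.0 in glycinergic amacrine cells, 47.4 in starburst cells and 1.02 in rods, with counts summed over the cells of each kind. A UMI of Slc32a1 was found in 77.1% of GABAergic amacrine cells and 0.601% of rods, at the median depths given above. With cells thinned to 5000 UMIs these shares were 30.1% of 1999 GABAergic amacrine cells and 0.442% of 6794 rods, since 19 and 8022 shallower cells were left out. Abat, the transaminase that breaks GABA down, was at 185 CPM against 88.5 in glycinergic cells. In Müller glia Abat was higher, at 313 CPM, so it does not set GABAergic amacrine cells apart from them. C1ql1 and C1ql2, secreted synaptic proteins of the C1q family, were at 85.8 and 34.5 CPM against 14.1 and 0.397. These 4 genes were all higher than in glycinergic cells.

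Marker genes of other retinal neurons were present at unequal levels. Prox1, a transcription factor of the glycinergic AII cell, was at 75.3 CPM against 759 in glycinergic cells, and Ebf3 at 6.56 against 112. Slc6a5, the neuronal glycine transporter, was at 86.6 CPM against 202 and had a UMI in 33.1% of the GABAergic amacrine cells, against 0.783% of rods. The glycinergic list is therefore not absent from these cells. Slc18a3, the vesicular acetylcholine transporter, had no UMI, which the rule favours. Among ganglion cell markers Nefl was at 11.1 CPM, Nefm and Rbpms at 10.9 each and Pou4f2, the lowest, at 0.237. Among horizontal cell markers Tmem130 was at 77.8 CPM, above the 46.2 of glycinergic and 43.3 of starburst cells, with a UMI in 79.7% of GABAergic amacrine cells. Septin4 was at 53.7 CPM, and Lhx1, the lowest, at 0.880. Levels in horizontal cells were not read, so whether Tmem130 and Septin4 set them apart from these cells was not tested. The 6 rod genes together were at 947 CPM, against 21818 in rods. RNA of other cells was not removed from the counts.

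**Figure D2:**
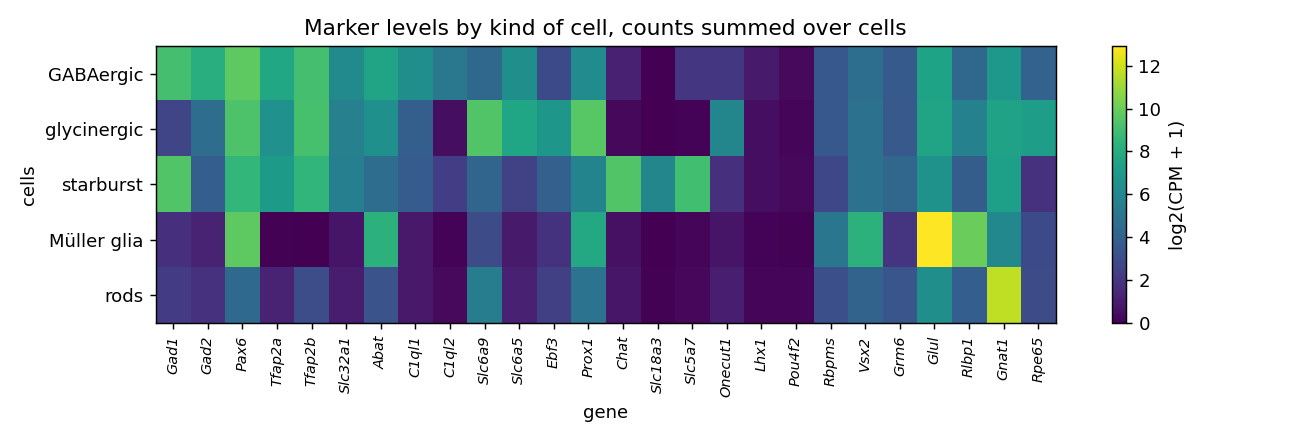
Each square gives the level of a marker gene (columns) in a kind of cell (rows) as log2 of CPM plus 1, with counts summed over the cells of that kind. GABAergic amacrine cells have the highest C1ql1 and C1ql2 of the 5 kinds, and they lack the high Chat and Slc5a7 of starburst cells.

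Glycinergic amacrine cells, 864 cells with Slc6a9 in place of Gad1 and Gad2, are another kind of amacrine cell, and levels were compared with theirs in each mouse. These contrasts are descriptions with no test, since the rule separated the cells by their counts. Of 14666 genes with at least 100 UMIs in both kinds of cell together, rule genes left out, 1589 (10.8%) were higher in GABAergic cells in 9 of 9 mice and 1109 (7.56%) were lower in 9 of 9. S04 had 10 glycinergic cells, the fewest of any mouse, so its values there are the least precise. Levels below are means over the 9 mice.

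The 10 genes with the highest ratios have varied roles. Cemip, a protein that breaks down hyaluronan, was at 329 CPM (lowest mouse 179, highest 383) against 5.35 in glycinergic cells, a ratio of 32.2 after 5 CPM were added to both. Tnc, the matrix glycoprotein tenascin C, was at 185 CPM against 2.34, and Klhl1, a relative of the actin-binding kelch proteins, at 219 against 4.73. In none of these did the ranges of the 2 kinds of cell meet. Zfhx3, a homeodomain and zinc finger factor, was at 823 CPM against 37.0, and Robo1, the receptor for the guidance protein Slit, at 2160 against 125. Kcnip1, a subunit that modulates Kv4 potassium channels, was at 1311 CPM against 75.4, and Nav3, a microtubule-associated protein, at 549 against 28.6. Stxbp6 (217 against 6.48), Kif26b (236 against 8.90) and Vwc2 (371 against 19.1) completed the 10. All 10 were higher in GABAergic cells in each of the 9 mice. Some were also high in the 145 starburst cells, with counts summed over them. Stxbp6 was at 517 CPM there, above its level in the other GABAergic cells, Kcnip1 at 711, Zfhx3 at 537 and Nav3 at 466, so low levels in glycinergic cells shape these ratios. The other 6 lay between 9.59 (Klhl1) and 128 CPM (Robo1) in starburst cells.

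At the other end stood genes that mark glycinergic cells. Spink13 was at 6.29 CPM in GABAergic cells against 623, and the noncoding RNA Gm45459 at 7.19 against 362. Slc6a12, a transporter of betaine and GABA, was at 1.35 CPM against 127. Dab1, the adaptor of reelin signalling, was at 358 CPM against 6378, and Drd2, a dopamine receptor, at 8.68 against 218. Kcnh1, a voltage-gated potassium channel, was at 40.3 CPM against 694, and Shisa6, an auxiliary protein of AMPA receptors, at 55.0 against 870. Lamp5 (8.59 against 203), Evc (9.67 against 196) and Syndig1 (13.8 against 249) were the remaining ones. All 10 were lower in GABAergic cells in each mouse.

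**Figure D3:**
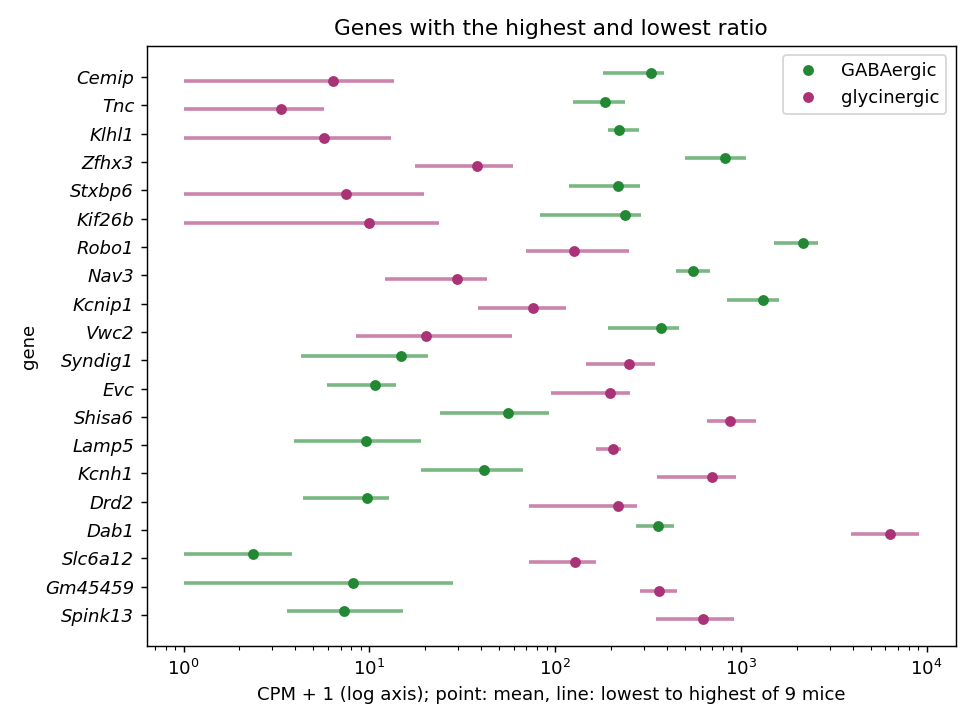
Points give the mean CPM plus 1 over 9 mice on a log axis for GABAergic (green) and glycinergic (purple) amacrine cells, and lines run from the lowest to the highest mouse. The upper 10 genes have the highest ratios and the lower 10 the lowest, and in no gene do the lines of the 2 kinds of cell overlap.

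GABA handling and receptors were read next, from fixed lists. Of 8 genes for GABA synthesis, transport and breakdown that the rule did not use, 6 were higher than in glycinergic cells in 9 of 9 mice and 0 lower, beside 10.8% higher and 7.56% lower over all genes. Slc6a11, a plasma membrane transporter of GABA, was at 581 CPM against 37.3, and Slc38a1, a carrier of glutamine, at 209 against 135. Slc6a13, a GABA transporter as well, went the other way, at 1.21 CPM against 15.4, and was higher in GABAergic cells in 1 of 9 mice. Among 20 GABA receptor genes, 5 (25%) were higher in every mouse and 1 (5%) lower, the latter near the 7.56% of all genes. Gabra2, an alpha subunit of the GABA-A receptor, was at 417 CPM against 65.5, and Gabrb1, a beta subunit, at 199 against 52.3. The 1 lower gene was Gabrg3, a gamma subunit, at 276 CPM against 2326. Both kinds of cell thus carried GABA-A receptor RNA. Gabbr2, a subunit of the metabotropic GABA-B receptor, was at 372 CPM against 109. Of 12 measured genes for glycine receptors and the inhibitory scaffold, 4 (33.3%) were higher in every mouse, again beside 10.8% of all genes, among them Glra1, an alpha subunit of the glycine receptor, at 82.4 CPM against 24.6.

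Receptors for glutamate, the input from bipolar cells, were read in the same way. Of 31 genes, 15 (48.4%) were higher in 9 of 9 mice and 5 (16.1%) lower, beside 10.8% and 7.56% of all genes, with no test of the difference. Grik4, a kainate receptor subunit, was at 109 CPM against 6.98. Grin2a, an NMDA receptor subunit, was at 515 CPM against 90.7. Lower in every mouse were Gria3 (515 against 803), Grik2 (649 against 952), Grin1 (204 against 280), and the AMPA receptor auxiliaries Cacng3 (204 against 389) and Cacng5 (33.2 against 172).

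Among 32 genes of vesicle release, 20 (62.5%) were higher in 9 of 9 mice and 5 (15.6%) lower, also without a test against all genes. Syt7, a calcium sensor linked to slow and asynchronous release, was at 417 CPM against 23.9. Cplx2, a complexin that holds the release machinery ready, was at 207 CPM against 20.6, whereas Cplx3 was lower, at 107 against 167. Complexin genes therefore split between the 2 kinds of cell. Among 38 sodium, calcium and potassium channel genes, 19 (50%) were higher in every mouse and 10 (26.3%) lower, beside 10.8% and 7.56% of all genes. Cacna1a, the pore of P/Q-type calcium channels, was at 816 CPM against 114, and Kcnc2, a Kv3 channel of fast-spiking neurons, at 850 against 128. Kcnma1, the BK potassium channel, was lower, at 1504 against 3893, as was Cacna2d3, at 61.2 against 477. Of 7 gap junction genes, Gjc1 was higher in every mouse (27.5 against 13.0) and Gjd2, the connexin that couples AII cells, lower (19.7 against 131), which at 14.3% each way is not far from the shares over all genes.

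Adhesion molecules and transcription factors are set beside the same shares, 10.8% higher and 7.56% lower over all genes. Of 37 adhesion and lamination genes, 22 (59.5%) were higher in 9 of 9 mice and 5 (13.5%) lower. Dscam, which keeps processes of like cells apart, was at 1665 CPM against 224, while its relative Dscaml1 was at 537 against 2833. Tenm3, a teneurin that matches synaptic partners, was at 1079 CPM against 107, and Sema6a, a semaphorin that sorts sublayers of the inner plexiform layer, at 422 against 33.8. Of 32 transcription factor genes that the rule did not use, 10 were higher in every mouse and 9 (28.1%) lower. Meis2, a homeodomain factor, was at 1423 CPM against 123, and Lhx9, a LIM homeodomain factor, at 46.6 against 1.64. Nfia, a nuclear factor I gene, was at 198 CPM against 1225, and Tcf4, a basic helix-loop-helix factor, at 201 against 1053. Ebf1 was at 31.6 CPM against 305. Meis2 is also on the list of genes linked to the 2 microRNAs, and so are their host genes. Trpm1, the host of miR-211, and Trpm3, the host of miR-204, are given with the dKO comparison below.

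The cells were not uniform, and 22 markers of known subtypes were counted in them at 2 or more UMIs per cell. Of these, 13 had at least 20 carriers. None of the 22 was found in 847 cells (42.0%), 1 in 796 (39.4%), 2 in 260 and 3 or more in 115. For Nts, which encodes neurotensin, 0 UMIs were found in 2018 cells, a count under which up to 0.149% of cells could have a UMI, and 8 further markers had between 0 and 14 carriers. The most common was Lhx9, with 538 carriers (26.7%), against 1.04% of glycinergic cells and 0.0202% of rods. Shares in rods were low for every marker reported here, but rods also have fewer UMIs, with the medians given above. They were also chosen without cells that had several of the rule's transcription factors, so these low shares describe the choice in part.

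Peptide genes marked small groups. Vip, vasoactive intestinal peptide, had 49 carriers (2.43%), against 0.116% of glycinergic cells and 0.00675% of rods. These carriers hold 98.4% of its UMIs, with up to 68 UMIs in 1 cell. They also had high Cbln4, a secreted synapse organiser (230 CPM against 4.19 in the remaining cells), and high Gpc5, a glypican (745 against 31.3). Npy, neuropeptide Y, had 98 carriers (4.86%), and Tac1, the precursor of substance P, had 135 (6.69%), against 0 rods for both. In starburst cells the shares were 23.4% for Npy, above that in the GABAergic cells described here, and 0.690% for Tac1. The 2 groups overlap, since 37 cells carried both, which is 37.8% of Npy carriers and 27.4% of Tac1 carriers. Npy carriers had high Svep1, a matrix protein (91.0 CPM against 5.40), and high Htr2c, a serotonin receptor (269 against 49.2), and Tac1 carriers had high Htr2c as well (263 against 42.6).

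Cartpt, the precursor of the CART peptide, gave the group with the highest ratio of any leading gene. It had 94 carriers (4.66%), against 0.0135% of rods. Kit, a receptor tyrosine kinase, was at 330 CPM in them against 2.06 in the remaining cells, a ratio of 47.4 after 5 CPM were added to both. Alk, another receptor tyrosine kinase, was at 1742 CPM against 114, Syt10, a synaptotagmin, at 294 against 7.58, and Sv2c, a synaptic vesicle protein, at 546 against 29.5. All 4 were higher in Cartpt carriers in 9 of 9 mice. Cartpt carriers also leaned to Gad1, with 23.2% of their Gad UMIs on Gad2, against 33.0% over all cells. Pdyn, prodynorphin, had 53 carriers (2.63%), against 6.25% of Müller glia, and the 5 Müller glia markers were at 1441 CPM in its carriers. Its leading gene, the noncoding RNA 6530403H02Rik, was at 77.5 CPM against 0.577 but had UMIs in 5.66% of carriers, so few cells carry that value.

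Dopamine and nitric oxide gave 2 more groups. Th, the enzyme that commits tyrosine to dopamine, had 24 carriers (1.19%), against 0 rods and 0.810% of glycinergic cells. Of these 24, 15 also carried Lhx9, 11 Calb1 and 10 Calb2. Slc18a2, the vesicular monoamine transporter, was at 22.4 CPM over all GABAergic amacrine cells and 0.522 in glycinergic cells, while Slc6a3, the dopamine transporter, was at 0.493. Ddc, the enzyme that completes dopamine, was at 0.474 CPM against 0.919 and higher in GABAergic cells in 1 of 9 mice. These levels are over all GABAergic amacrine cells and not over the 24 Th carriers. Nos1, neuronal nitric oxide synthase, had 178 carriers (8.82%), against 0.0405% of rods, and up to 196 UMIs in 1 cell. Its leading genes were Rpe65 (112 CPM against 3.44) and Rgr (156 against 7.63), which belong to the visual cycle of RPE and Müller glia. Rpe65 had a UMI in 13.5% of Nos1 carriers and 7.77% of other cells, and it was higher in carriers in 5 of 9 mice.

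Transcription factors and calcium-binding proteins marked the larger groups. Maf, a basic leucine zipper factor, had 251 carriers (12.4%), against 0.101% of rods and 20.7% of Müller glia, and held a median of 21 UMIs in a carrier. The 5 Müller glia markers were at 1186 CPM in Maf carriers and 712 over all GABAergic amacrine cells. Dytn, a dystrophin-related gene, was at 147 CPM in Maf carriers against 0.516 in other cells, with a UMI in 81.7% of carriers and 1.30% of others. Chrm1, a muscarinic acetylcholine receptor, was at 83.7 CPM against 3.18, and Best3, a bestrophin anion channel, at 116 against 5.28. Maf and Nos1 were carried together by 45 cells. Lhx9 carriers had high Olfm3 (1089 CPM against 145), Mdga1, an adhesion protein that blocks neuroligins (196 against 20.5), and Tshr, the thyrotropin receptor (309 against 43.1). Each of these was higher in 9 of 9 mice. Gad1 was more prominent in Lhx9 carriers too, with 28.9% of Gad UMIs on Gad2, whereas Maf carriers had 44.0%.

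Calb1 and Calb2, the calcium buffers calbindin and calretinin, had 74 and 77 carriers (3.67% and 3.82%), against 0.0540% and 0.108% of rods. In glycinergic cells the shares were 30.1% and 13.1%, and in starburst cells 58.6% and 89.0%, and 25 GABAergic amacrine cells carried both. Col6a4, a collagen, led both groups, at 198 CPM against 5.42 for Calb1 and 157 against 7.35 for Calb2. Slc17a8, the vesicular glutamate transporter of a separate amacrine type, had 20 carriers (0.991%, against 2.08% of glycinergic cells) with a median of 63664 UMIs, against 26658 over all GABAergic amacrine cells. The 5 Müller glia markers were at 2423 CPM in these carriers and 712 over all GABAergic amacrine cells, and 15.2% of Müller glia carry Slc17a8 themselves. Whether such cells are pairs of cells was not tested.

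**Figure D4:**
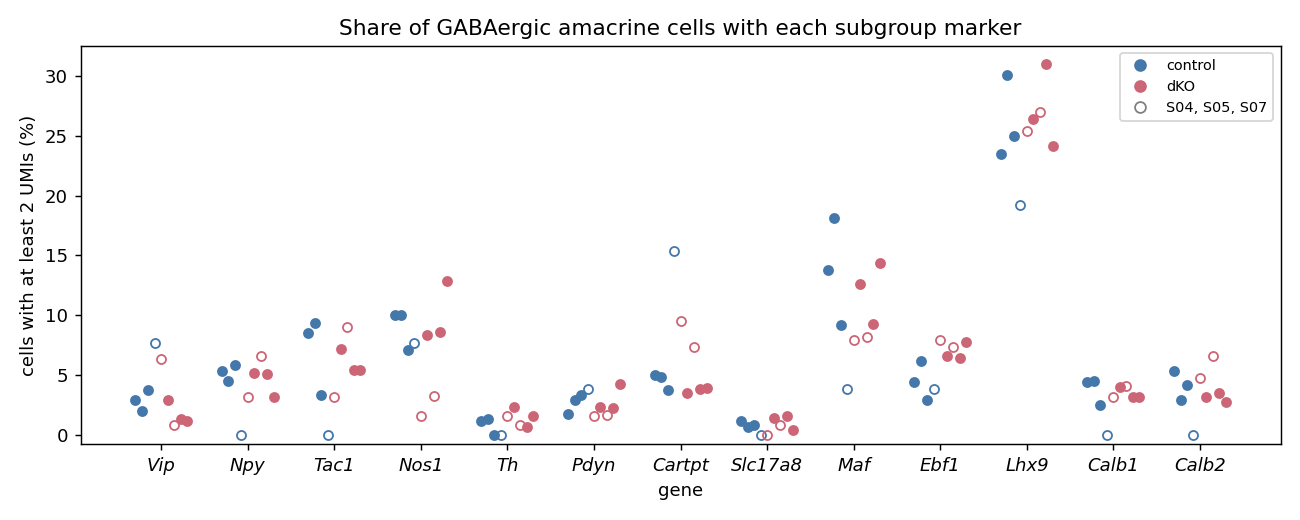
Each point is 1 mouse and gives the percent of its GABAergic amacrine cells with at least 2 UMIs of a marker, with control mice in blue, dKO mice in red and open points for S04, S05 and S07. The groups overlap for 12 of 13 markers, and for Ebf1 the 5 dKO mice lie above the 4 control mice.

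Ebf1 was also carried by other kinds of cell. It had 119 carriers (5.90%), against 22.3% of glycinergic cells, 6.90% of starburst cells and 1.26% of rods. The carriers had high Rbpms, an RNA-binding protein of ganglion cells (72.2 CPM against 4.52), and high Slc17a6, the vesicular glutamate transporter of ganglion cells (30.8 against 0.523). However, a UMI of Rbpms was found in 28.6% of carriers and one of Slc17a6 in 10.9%, so most carriers had neither gene detected. Ebf3, of the glycinergic list, was also high in carriers (50.1 CPM against 2.00). It had a UMI in 23.5% of them and was higher in 9 of 9 mice. The 6 ganglion cell markers together were at 205 CPM in Ebf1 carriers and 38.4 over all GABAergic amacrine cells. In Calb2, Cartpt and Calb1 carriers they were at 201, 143 and 113 CPM. Over all cells Nefl, a neurofilament, was the most abundant of the 6 and Pou4f2 was near 0 (0.237 CPM). In all, 161 cells (7.98%) had UMIs of at least 2 of these 6 markers. By mouse these were 29, 26, 15 and 0 cells in S01 to S04 and 4, 39, 10, 18 and 20 in S05 to S09. As a share they ranged from 0% in S04, where 26 cells were counted, to 11.2% in S06. Several results that involve these markers are given with and without the 161 cells, where the gene could be tested without them.

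The first question about the dKO was whether loss of the 2 microRNAs in RPE changed how many GABAergic amacrine cells were recovered. Their share of all cells was 8.24%, 7.99%, 7.41% and 0.959% in S01 to S04, and 3.89%, 8.41%, 2.59%, 9.78% and 7.37% in S05 to S09. S04 was lowest, followed by S07 and S05, and the groups overlapped. The control mean was 6.15% ± 3.48 (SD, n = 4) and the dKO mean 6.41% ± 3.05 (SD, n = 5), a difference of 0.257 percentage points with an exact two-sided permutation p of 0.873. Without S04, S05 and S07 they were 7.88% ± 0.423 and 8.52% ± 1.21 (SD, n = 3 each), with an exact p of 0.500, where 3 against 3 mice cannot go below 0.100. As a share of amacrine cells, GABAergic cells averaged 67.9% ± 1.94 (SD, n = 4) in the control group against 67.8% ± 6.85 (SD, n = 5) in the dKO group, with an exact permutation p of 0.968. The mice of 1 group thus spread more widely in the first share than the groups differed.

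Subtypes were compared next, as the share of a mouse's GABAergic amacrine cells that carried each of the 13 markers. By exact two-sided permutation tests, 1 of 13, Ebf1, had an unadjusted p below 0.05. After adjustment over the 13, a single marker cannot go below 0.206 with 4 against 5 mice, so an adjusted p of 0.05 was out of reach for it. The Ebf1 share was 4.41%, 6.15%, 2.92% and 3.85% in S01 to S04, and 7.94%, 6.61%, 7.38%, 6.39% and 7.78% in S05 to S09. Every dKO mouse was above every control mouse, though S02 and S08 were close. The means were 4.33% ± 1.36 (SD, n = 4) and 7.22% ± 0.692 (SD, n = 5), and the exact p of 0.0159 is the smallest that 4 against 5 mice allow. With cells thinned to 5000 UMIs, and the 19 shallower cells left out, the means were 1.64% and 2.14% (exact permutation p = 0.476). The difference of 2.89 percentage points was 0.235 when carriers needed at least 1 UMI, 0.754 when they needed at least 3, and 2.43 without S04, S05 and S07, so it depends on the number of UMIs asked for. Adjusted exact p ranged from 0.190 to 0.952 over all settings. Without the cells that had ganglion cell markers the means were 3.82% and 5.98% (exact permutation p = 0.0159), and those shares were 4.18%, 4.59%, 2.67% and 3.85% against 6.78%, 5.50%, 5.36%, 5.08% and 7.17%. The groups did not overlap there either.

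Other subtype shares were as variable within groups as between them. For Vip the shares were 2.94%, 1.94%, 3.75% and 7.69% in S01 to S04 and 6.35%, 2.87%, 0.820%, 1.28% and 1.17% in S05 to S09. S04 and S05 were the highest, with 2 and 4 carriers. Lhx9 carriers were 24.5% ± 4.48 (SD, n = 4) and 26.8% ± 2.59 (SD, n = 5), Maf carriers 11.2% ± 6.14 and 10.5% ± 2.88, and Nos1 carriers 8.70% ± 1.54 and 6.93% ± 4.52. The adjusted exact p was 0.762 for each of the 12 markers other than Ebf1.

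Gene levels were then compared between dKO and control in the UMIs summed per mouse, to ask whether these inner neurons responded at a distance to the deletion in RPE. Of 14262 genes tested with edgeR, 0 (0%) passed an adjusted p of 0.05, and at an unadjusted p of 0.05 there were 262 (1.84%), with 141 (0.989%) higher and 121 (0.848%) lower in dKO mice. Limma-voom gave 0 genes and DESeq2 gave 1, D130079A08Rik. The 5 dKO mice lay above all 4 control mice in 53 genes (0.372%) and below them in 51 (0.358%). The 5 genes with the smallest p in each direction are given below, and none of them passed the threshold in edgeR, with adjusted p of 1.0 for all 10. Their levels are CPM scaled by TMM factors.

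D130079A08Rik, a long noncoding RNA on chromosome 14 (104525867 to 104696773), was at 1.82, 2.06, 1.21 and 1.66 CPM in S01 to S04 and at 12.0, 13.3, 29.0, 17.4 and 2.21 CPM in S05 to S09. All dKO mice were above all control mice, but S09 lay just above them. The log2 fold change was 3.07 ± 0.63 (SE), and 2.69 without S04, S05 and S07. Few cells carry it: 5 cells hold 69.7% of its 512 UMIs, and 1 cell holds 127. It was high in Ebf1 carriers (73.8 CPM against 1.83 in other cells) and in Calb2 carriers (89.9 against 3.11). Without the 161 cells with ganglion cell markers its log2 fold change was 0.13, and with Gad1 and Gad2 at 4 or more per 10000 UMIs it was 0.33. DESeq2 gave an adjusted p of 9.09e-04, and edgeR without S09 gave 0.0302, within a range of 9.09e-04 to 1.0 over all settings. Whether the 5 cells with most of its UMIs are among the 161 was not tested.

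The next 4 were picked by p among genes higher in dKO mice, so their sign is part of the choice. Colgalt2, an enzyme that adds galactose to collagen, was at 8.79, 8.12, 8.29 and 9.98 CPM in S01 to S04 and at 14.04, 13.8, 10.6, 12.1 and 14.3 in S05 to S09. The groups did not overlap, with S04 and S07 closest. On the log2 scale the change was 0.60 ± 0.15 (SE), 0.68 without S04, S05 and S07, and 0.29 without the cells that had ganglion cell markers. Wipf1, which binds the actin regulator WASP, was at 2.68, 2.49, 1.36 and 0 CPM and at 8.84, 5.03, 7.05, 4.04 and 4.41 CPM, also without overlap. S04 had 0 UMIs of Wipf1 in 26 cells. This is a log2 fold change of 1.40 ± 0.36 (SE), 1.02 without the 3 mice, 0.91 without the cells with ganglion cell markers, and 0.44 without the 5% of cells with the most UMIs. Mfap3l, a protein related to a microfibril component, was at 39.6, 38.1, 36.2 and 29.9 CPM and at 58.8, 50.1, 45.1, 49.97 and 44.9 CPM. Again no dKO mouse fell within the control range, and S05 was highest. The log2 fold change was 0.43 ± 0.11 (SE) and 0.35 without the 3 mice. The noncoding RNA Gm45460 was at 0.322, 0.325, 0.754 and 0 CPM and at 0, 1.89, 4.03, 2.86 and 2.05 CPM, and the groups overlapped, since S05 had 0. It had 88 UMIs in all, 63.6% of them in 5 cells. That gives a log2 fold change of 2.38 ± 0.62 (SE), and 2.31 without the 3 mice. Without the cells that had ganglion cell markers it was not tested, as too few UMIs remained. A UMI of Gm45460 was found in 1.39% of GABAergic and 45.7% of glycinergic amacrine cells. For Wipf1 these shares were 5.10% and 43.5%, and for Colgalt2 13.5% and 45.3%. For Mfap3l they were 48.7% and 33.9%, and for D130079A08Rik 4.96% and 4.40%.

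In the other direction, 3 of the 5 genes lie on the X chromosome. Ptchd1, a patched-related membrane protein (X, 154355526 to 154407276), was at 11.7, 21.0, 18.7 and 19.96 CPM in S01 to S04 and at 10.9, 10.1, 4.53, 6.54 and 8.04 in S05 to S09. S01 was close to S05, and the groups did not overlap. The log2 fold change was -1.13 ± 0.26 (SE), and -1.04 without S04, S05 and S07. Klhl4, a kelch protein, was at 8.47, 9.09, 7.84 and 11.6 CPM and at 3.12, 6.45, 3.02, 4.04 and 4.25 CPM, with S04 highest. The change was -0.98 ± 0.24 (SE) on the log2 scale, and -0.76 without the 3 mice. The noncoding RNA 3632454L22Rik was at 5.25, 4.55, 4.22 and 1.66 CPM and at 2.60, 2.20, 2.01, 1.78 and 2.36 CPM, where S04 fell within the dKO range. This is a log2 fold change of -1.04 ± 0.25 (SE) and -1.15 without the 3 mice. Of the 51 genes whose dKO mice were all below the control mice, 3 (5.88%) are X-linked, against 3.29% of all tested genes with a position. Among genes lower at an unadjusted p of 0.05, 4 of 118 (3.39%) are X-linked, close to that share.

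Gm48821 and Mmel1 were the remaining ones. Gm48821, a noncoding RNA with 90 UMIs in 64 cells, was at 2.36, 2.60, 1.66 and 3.33 CPM and at 0.520, 1.18, 0.755, 0.833 and 0.788 CPM. Mmel1, a membrane metallopeptidase related to neprilysin, had 80 UMIs in 72 cells and was at 1.93, 2.16, 2.26 and 1.66 CPM against 1.56, 0.787, 1.26, 0.476 and 0.630. Both had every dKO mouse below every control mouse. The log2 fold changes were -1.34 ± 0.30 (SE) and -1.34 ± 0.34 (SE), and without S04, S05 and S07 they were -1.20 and -1.68. In S04, 1.66 CPM stand for 1 UMI.

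**Figure D5:**
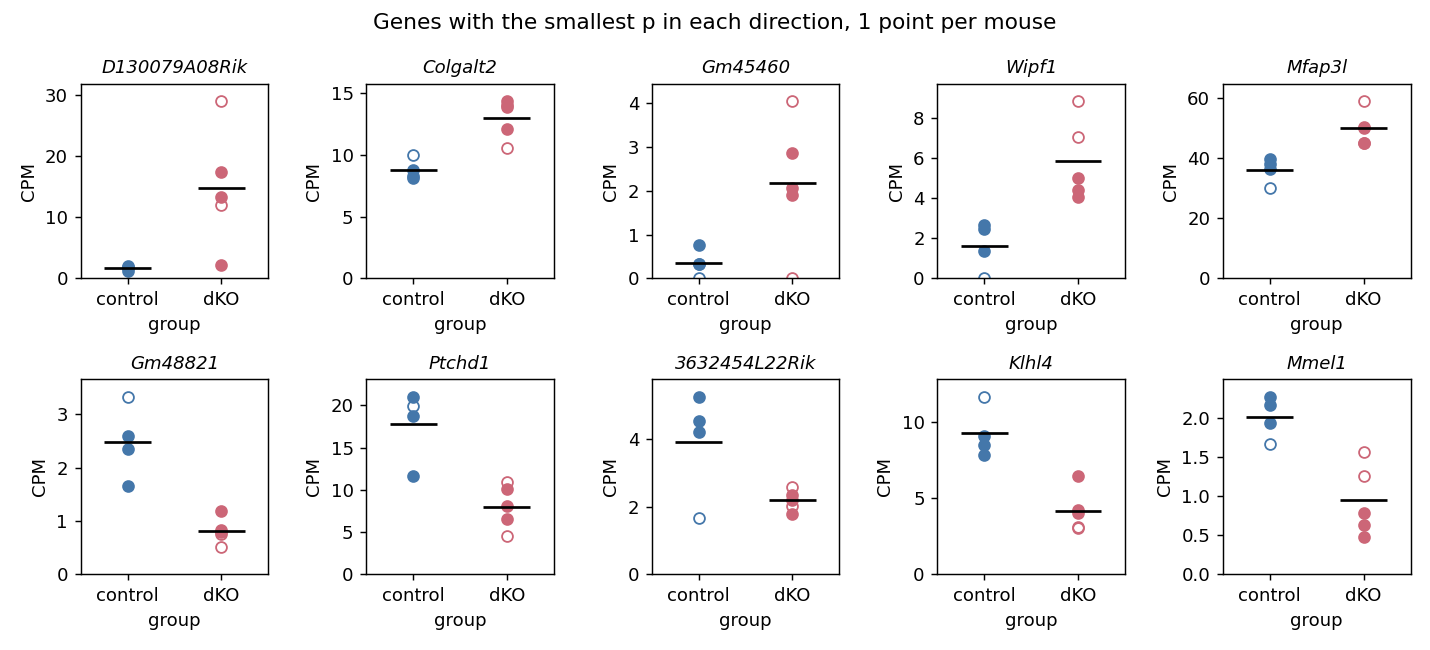
Each panel is 1 gene and each point 1 mouse, in CPM, with control on the left in blue, dKO on the right in red, open points for S04, S05 and S07 and a black line at the mean of the group. The upper row holds the 5 genes with the smallest p among those higher in dKO mice and the lower row the 5 lower in dKO mice. The groups did not overlap in 8 of 10, beside 0.372% (higher) and 0.358% (lower) of all genes. Since these genes were chosen by p between the same groups, that count follows in part from the choice.

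Genes that make these cells GABAergic showed small differences. Slc32a1 was at 74.2, 79.3, 73.3 and 33.3 CPM in S01 to S04 and at 46.3, 66.6, 55.1, 65.7 and 91.2 CPM in S05 to S09. S04 and S05 were the lowest and S09 the highest, so each group spans the other's mean. Its log2 fold change was -0.06 ± 0.23 (SE), and those of Gad1 and Gad2, which chose the cells, were -0.07 ± 0.08 and -0.08 ± 0.14. The standard errors exceed each of these changes, and their signs turned under some settings given in the closing section. Over the 9 tested genes of the list, which include Gad1 and Gad2, 2 were positive and the median was -0.06, against 0.01 over all genes tested. Without the 3 mice that stood apart these medians were -0.03 and 0.00. Over 6 marker genes of GABAergic neurons that the rule did not use, 2 were positive. Their median was -0.03, or -0.04 without the 3 mice.

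Receptor genes are given by list, beside 7472 positive values among the 14262 genes tested. Of 31 glutamate receptor genes, 9 were positive, the median was -0.13, and 3 had an unadjusted p below 0.05, all lower, which is 3 of the 121 named above (0.848% of all genes). Without S04, S05 and S07 the median was -0.01. Grm3, a metabotropic receptor that inhibits adenylyl cyclase, was at 56.0, 71.9, 42.7 and 31.6 CPM and at 25.5, 30.2, 30.2, 37.4 and 48.2 CPM. Its groups overlapped, with S04 low among control and S09 high among dKO mice, and the log2 fold change was -0.60 ± 0.23 (SE), and -0.58 without the 3 mice. Cacng3 and Cacng8, auxiliary subunits of AMPA receptors, had log2 fold changes of -0.26 ± 0.11 and -0.37 ± 0.16, and -0.22 and -0.24 without the 3 mice. Of 17 tested GABA receptor genes, 5 were positive, with a median of -0.06, or -0.08 without the 3 mice, and 1 gene, Gabra4, below an unadjusted p of 0.05 at -0.45 ± 0.20 (-0.53 without the 3). Of 11 genes for glycine receptors and the scaffold, 2 were positive and the median was -0.15, or -0.04 without the 3 mice. None of these genes passed the adjusted threshold in edgeR, where all adjusted p were 1.0.

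Among 38 channel, 32 vesicle release and 37 adhesion genes, Cacna1c was the 1 gene whose groups did not overlap, beside 0.358% of all genes lower and 0.372% higher in this way, so the count says nothing about these lists. This pore of L-type calcium channels was at 547, 565, 566 and 531 CPM in S01 to S04 and at 420, 499, 448, 469 and 507 CPM in S05 to S09. The lowest control mouse, S04, and the highest dKO mouse, S09, lay close together. Its log2 fold change was -0.24 ± 0.08 (SE), and -0.19 without S04, S05 and S07. Of the channel genes 14 were positive, with a median of -0.05, or -0.03 without the 3 mice. For vesicle release genes 18 were positive, with a median of 0.01 (0.00 without the 3), and for adhesion genes 10 were positive, with a median of -0.07 (-0.04). Cdh8, a cadherin, had the only unadjusted p below 0.05 among the adhesion genes, with 175, 168, 180 and 271 CPM against 169, 138, 128, 125 and 170 and a log2 fold change of -0.42 ± 0.16 (SE), or -0.28 without the 3 mice.

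Peptide genes varied between mice of the same group. Vip was at 19.0, 15.6, 23.1 and 41.6 CPM in S01 to S04 and at 62.4, 4.80, 6.30, 8.33 and 3.78 in S05 to S09. S05 was the highest of all mice, while the other 4 dKO mice lay below every control mouse. The log2 fold change was -0.65 ± 0.79 (SE), and -1.75 ± 0.27 without S04, S05 and S07, with an adjusted p of 0.416 in edgeR and 7.61e-06 in DESeq2, within a range of 7.61e-06 to 1.0 over all settings. S05 holds 120 of the 799 UMIs of Vip, in 4 carriers, and 5 cells hold 33.4% of all of them. Of 5 tested peptide genes 1 was positive and the median was -0.62, or -0.41 without the 3 mice.

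Slc17a6 was at 0.429, 2.92, 0.151 and 0 CPM in S01 to S04 and at 8.84, 3.85, 5.04, 8.92 and 1.26 CPM in S05 to S09. S02 lay above S09, and the log2 fold change was 2.16 ± 0.76 (SE), and 1.93 without S04, S05 and S07. It had 201 UMIs in 41 cells, with 60.7% of them in 5 cells. Slc17a6 is a ganglion cell marker, and markers of several other kinds of cell were also positive, as given below. The summed level of the 6 ganglion cell markers in these cells was 22.2, 41.8, 21.7 and 9.86 CPM in S01 to S04 and 73.8, 37.9, 44.1, 67.6 and 26.0 CPM in S05 to S09. The groups overlapped, with S05 and S08 highest and S04 lowest. Of 5 tested markers, 5 were positive and 3 had an unadjusted p below 0.05, Rbpms among them at 1.25, beside 0.989% of all genes higher at that p. The median was 1.25, or 1.09 without the 3 mice. Without the 161 cells the log2 fold change of Rbpms was 0.12, that of Nefl -0.06, where it had been 0.57, and that of Nefm -0.69 (unadjusted p of 0.0497 in edgeR), where it had been 0.21. The 161 cells were chosen by UMIs of these same markers, so a change on leaving them out is partly fixed by the choice, and Slc17a6 and Pou4f1 could not be tested there. The summed level of these markers was also higher in Ebf1 carriers than over all cells, as given above. Ebf1 had a log2 fold change of 0.95 ± 0.30 (SE), 0.77 without the 161 cells and 0.65 without S04, S05 and S07. The range for Ebf1 over all settings was 0.17 to 1.502. Its levels were 15.6, 31.6, 16.9 and 16.6 CPM against 58.2, 33.1, 45.6, 45.6 and 22.1 CPM, so that S02 and S09 made the groups overlap.

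Other marker lists were read in the same way, beside the same 0.989% of all genes. Of 4 tested horizontal cell markers 3 were positive and 2 had an unadjusted p below 0.05, the factors Onecut1 (1.12) and Onecut2 (1.36), with a median of 0.67, or 0.59 without S04, S05 and S07. The 5 horizontal cell markers together, of which Tmem130 was the most abundant, were at 131, 141, 143 and 88.7 CPM in S01 to S04 and at 99.5, 162, 144, 140 and 128 CPM in S05 to S09, so their sums overlapped. For astrocytes 4 of 4 were positive, with a median of 0.66 (0.44 without the 3 mice), and for glycinergic cells 4 of 5, with 0.21 (0.15). Of 4 starburst markers 3 were positive, with a median of 0.30 (0.26), and Megf11 (0.38) had an unadjusted p below 0.05 and groups that did not overlap. The rule used Chat and Slc5a7 of the starburst list and Slc6a9 of the glycinergic list. The counts and medians of these lists thus describe in part the choice of cells. Lists of photoreceptors and bipolar cells moved toward 0 or past it without the 3 mice, from 0.28 to 0.04 for rods (5 of 6 positive), 0.28 to 0.01 for bipolar cells (4 of 5) and 0.25 to -0.24 for cones (4 of 5). The RPE list went the other way, with 0 of 3 positive and medians of -0.41 and -0.13. Medians were 0.07 and 0.19 for Müller glia (3 of 5 positive), 0.31 and 0.09 for microglia (2 of 2), 0.17 and 0.24 for endothelial cells (2 of 3) and 0.29 and 0.57 for pericytes (2 of 2). None of these genes had an adjusted p below 0.05. The part of RNA from other kinds of cell in these values was not tested.

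Stress and immune genes were low in level. H2-K1, a class I antigen-presenting molecule, was at 5.04, 3.35, 5.43 and 1.66 CPM and at 7.28, 10.2, 7.05, 7.26 and 6.62 CPM, with all dKO mice above all control mice. On the log2 scale this was 0.83 ± 0.24 (SE) with and 0.83 without the 3 mice. Of 7 tested genes of interferon response and antigen presentation, 6 were positive with a median of 0.31 (0.41 without the 3 mice), and H2-K1, Stat2 (0.31, or 0.41) and Irf1 (1.25, or 1.62) had an unadjusted p below 0.05, beside 0.989% of all genes higher at that p. All 3 had an adjusted p of 1.0. Atf3, a factor induced by injury, was at 4.93, 4.87, 4.82 and 3.33 CPM against 9.36, 13.6, 4.79, 9.40 and 6.93, where S07 alone overlapped with the control mice. Its log2 fold change was 0.91 ± 0.29 (SE) and 1.06 without the 3 mice. Of 15 immediate early genes 9 were positive, with a median of 0.13 (0.06 without the 3 mice). Hspa1a, a heat shock protein, had a log2 fold change of 1.05 ± 0.39 (SE), or 0.74 without the 3 mice, at 0.926 and 2.62 CPM in the groups, and 9 of 12 genes of its list were positive with a median of 0.10, or -0.03 without the 3 mice.

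The remaining lists are given by their medians with all mice, and then without S04, S05 and S07. Medians were -0.03 and -0.15 over 8 glucocorticoid-responsive genes, 0.02 and -0.01 over 17 clock genes, and 0.07 and 0.01 over 12 calcium-binding proteins. They were 0.01 and 0.00 over 29 amacrine transcription factors, 0.03 and 0.03 over 4 gap junction genes, and 0.07 and -0.05 over 10 genes of second transmitters. For glucocorticoid-responsive genes the median thus moved away from 0. Its sign turned for second transmitters, for clock genes and, from 0.0147 to -0.00157, for amacrine transcription factors. The list of amacrine transcription factors includes the rule genes Pax6, Tfap2a and Tfap2b. That of second transmitters includes the rule genes Slc6a9, Chat and Slc5a7. The medians of these lists thus describe in part the choice of cells, and no conclusion is drawn from them. Of 7 genes linked to the 2 microRNAs, 2 were positive and the median was 0.00 in both. This list holds 6 genes once those of the rule are left out, so it includes a rule gene. Without S04, S05 and S07 its median, -0.00157, was the same as that of the 5 rule genes Gad1, Gad2, Pax6, Tfap2a and Tfap2b. The count and medians of this list thus also describe in part the choice of cells, and no conclusion is drawn from them. Trpm1 was at 136, 145, 132 and 191 CPM in S01 to S04 and at 155, 140, 186, 116 and 46.8 CPM in S05 to S09, with S09 far below the others and the groups overlapping. Trpm3 was at 1685, 1659, 1518 and 1563 CPM and at 1362, 1665, 1576, 1709 and 1695 CPM, also with overlap. Their log2 fold changes were -0.22 ± 0.31 (SE) and 0.00 ± 0.09 (SE), and -0.43 and 0.06 without S04, S05 and S07. That of Trpm1 ranged from -0.38 to 0.00 with 1 mouse left out and from -0.55 to 0.21 over all settings, and that of Trpm3 from -0.03 to 0.07, so both signs occurred for each.

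Of 8 genes that the study named for RPE, rods or Müller glia, 4 were positive in GABAergic amacrine cells, the median was -0.04 (-0.11 without the 3 mice), and 2 had an unadjusted p below 0.05, both lower, beside 0.848% of all genes. Gm48606, a noncoding RNA, was at 13.5, 10.7, 6.78 and 19.96 CPM in S01 to S04 and at 5.72, 5.51, 7.81, 1.78 and 3.31 CPM in S05 to S09. S03 and S07 made the groups overlap. The log2 fold change was -1.30 ± 0.40 (SE), and -1.51 without S04, S05 and S07. Gm45895 was at 21.0 CPM in S02 and at 0 to 3.33 CPM in every other mouse. Its log2 fold change of -2.67 ± 0.84 (SE), or -2.57 without the 3 mice, was computed with S02. The highest log2 fold change of the list was that of Rn7sk, a small nuclear RNA, at 2.01 ± 1.03 (SE). Rn7sk was at 20.1, 27.5, 23.2 and 9.98 CPM and at 19.2, 36.9, 362, 7.61 and 19.2 CPM, with S07 far above the others, and without the 3 mice its log2 fold change was -0.12.

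Whether the dKO effect differed from that in glycinergic amacrine cells of the same mice was tested gene by gene. With edgeR, 0 of 13313 genes (0%) passed an adjusted p of 0.05, 379 (2.85%) had an unadjusted p below 0.05, and limma-voom with the mouse as a block gave 0. The smallest p among genes with a positive difference was that of Gm45460, at 2.77 on the log2 scale. Second was Stox1, at 1.34, a winged-helix factor with 18.3, 14.6, 16.0 and 16.6 CPM against 8.84, 19.5, 14.4, 27.7 and 17.3 in GABAergic cells. In glycinergic cells Stox1 was at 20.1, 11.5, 12.7 and 17.8 CPM in S01 to S04 and at 6.47, 6.85, 4.03, 8.93 and 7.61 CPM in S05 to S09, where the groups did not overlap. Nos1 differed by 2.51 ± 0.60 (SE), with log2 fold changes of 0.05 in GABAergic and -2.41 in glycinergic cells, and Cdh8 by -1.32 ± 0.34 (SE), with -0.42 and 1.04. Lrrc3b and D130079A08Rik (2.06 and 3.90) and, with the other sign, Lin28b, Rerg, Garem1 and Synm (-1.92, -3.66, -0.95 and -1.30) completed the 10. Without S04, S05 and S07 the differences of Gm45460, Stox1, Nos1 and Cdh8 were 2.58, 1.31, 2.89 and -1.26, and all 10 kept their sign. With 1 mouse left out, D130079A08Rik ranged from 2.35 to 5.04 and Rerg from -6.97 to -2.93, so their sizes depend on which mice are used. All 10 had an adjusted p of 1.0 with the filter on low counts. Without that filter 180 of 32429 genes passed, and 8 of the 10 were among them, with adjusted p of 2.01e-11 for Nos1, 2.31e-11 for D130079A08Rik, 2.43e-08 for Cdh8, 5.50e-08 for Gm45460, 2.81e-04 for Garem1, 0.00100 for Rerg, 0.00559 for Lrrc3b and 0.0129 for Stox1. Lin28b (0.0565) and Synm (0.169) did not pass. The calls thus depend on the filter, and why was not tested.

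Leaving out S02 changed the calls as well. With the filter in place and S02 left out, 12 genes passed, among them Ttr, a carrier of thyroxine and retinol-binding protein, and Dct, an enzyme of melanin synthesis, both abundant in RPE, with adjusted p of 0.0347 and 0.0383 (over all settings 4.34e-04 to 1.0 and 2.94e-05 to 1.0). Of these 12, 11, Ttr and Dct included, also passed without the filter. The 5 RPE markers were at 657, 11.8, 805 and 0 CPM in the glycinergic cells of S01 to S04 and at 84.2, 134, 1.73, 111 and 8.12 CPM in those of S05 to S09. In GABAergic amacrine cells they were at 23.3, 50.4, 10.3 and 4.93 CPM and at 7.33, 63.2, 7.15, 8.91 and 7.69 CPM. S02 is thus low among glycinergic cells of S01 to S03 and the highest control mouse among GABAergic cells. Whether RNA from RPE accounts for these 12 genes was not tested.

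Last, the gene comparison was repeated without S04, S05 and S07, which leaves 3 control and 3 dKO mice. With edgeR, 1 of 14825 genes (0.00675%) passed an adjusted p of 0.05, limma-voom gave 0 and DESeq2 gave 13. The edgeR gene was Ifi202b, an interferon-inducible gene, with a log2 fold change of 4.91 and an adjusted p of 0.0267, within a range of 1.55e-05 to 1.0 over the 8 settings that tested it. It had 155 UMIs in 10 cells, and 5 cells hold 96.8% of them, so few cells decide this value. DESeq2 named Ifi202b, Vip, Gsto1, Itga6, Foxp2, Emp1, Nkd1, Anxa2, Thsd7b, C1qtnf7, Neat1, Gm45459 and 6330411D24Rik. Of these, Vip and C1qtnf7 were lower in dKO mice and the other 11 were higher. None of the 13 passed with all 9 mice in edgeR, and Ifi202b was not tested there.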

How the data were processed

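Single-cell RNA was counted in whole retinas of 9 mice with split-pool barcoding. The deposited matrix holds UMI counts per gene and cell, and the authors aligned and demultiplexed the reads with Parse split-pipe, removed cells with few genes and rare genes, and merged the sublibraries. Their processing notes name R 4.2.2 and Seurat 4.3.0. Counts were used as deposited. Doublets and free RNA were not removed.

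GABAergic amacrine cells were chosen by the rule given in the report, from counts scaled by each cell's total. Members and gene lists were chosen with earlier results of these data known. Samples follow the sample column. UMIs were summed per mouse, genes were kept with filterByExpr, counts were scaled by TMM, and dKO was tested against control with the quasi-likelihood test of edgeR 4.0.16 in R 4.3.3, with Benjamini-Hochberg adjustment and a threshold of 0.05. The difference of effect from glycinergic cells was an interaction term with the mouse as a block. Shares were compared by exact two-sided permutation tests over mice, for which 4 against 5 mice cannot give a p below 0.0159. The pipeline was tested on simulated data. Gene positions come from GENCODE mouse release M39 (GRCm39). By a rule written before these comparisons were made, named genes are those of described lists, subtype markers, the 5 with the smallest p in each direction of a gene comparison (Xist and Y-linked genes left out), the 10 highest and 10 lowest ratios to glycinergic cells after adding 5 CPM, and the 5 highest ratios in each subtype. Other names, such as genes called in 1 alternative, were chosen after their values were seen.

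Alternatives were limma-voom (limma 3.58.1), DESeq2 1.42.0, no filter on low counts, other thresholds and denominators, thinned counts, a covariate for Xist, each mouse left out in turn, and S04, S05 and S07 left out together. Leaving out cells with ganglion cell markers, the other tools without those 3 mice, and the share of amacrine cells without them were chosen after seeing the data. Python 3.11.15 with numpy 2.4.6, pandas 2.3.3, scipy 1.17.1 and matplotlib 3.10.9 did the rest. Limits for a count of 0 cover counting error only.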

Additional observations from a re-analysis of the deposited data

Results flagged for a closer look

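In 8 of 60 groups of mice, 1 mouse lay far from the others of its group, where chance alone gives about 1 in 20 groups. Of these, 6 concern S04, which has 26 GABAergic amacrine cells. Their share of all cells in S04 was 0.959%, against 7.41% to 8.24% in the other control mice. Their median depth was 22758.5 UMIs (others 25665 to 26217.5), and 0.509% of their UMIs fell on the 6 rod genes (others 0.0368% to 0.0887%). Cartpt carriers were 15.4% of the cells of S04 (others 3.75% to 5.00%). Gad1 was at 521 CPM (others 573 to 578) and Slc32a1 at 33.3 CPM (others 73.3 to 79.3). Among dKO mice, Pdyn carriers were 4.28% in S09 (others 1.59% to 2.30%), and Gad1 was at 597 CPM in S08 (others 511 to 534). Gad1 was used by the rule, so its values in S04 and S08 describe the choice of cells. The 8 of 60 groups include them, so that count is not a test against chance. The causes were not tested.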

How the results depend on the processing

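The count of genes past the threshold was 0 in 19 of 23 alternatives. DESeq2 gave 1. Without S04, S05 and S07 edgeR gave 1 and DESeq2 13. Leaving out 1 mouse at a time gave 0 to 1, the 1 without S09. For the difference of effect from glycinergic cells, 11 of 13 alternatives gave 0, no filter on low counts gave 180, with 8 of the 10 genes named for that comparison among them, and leaving out 1 mouse at a time gave 0 to 12, the 12 without S02. Subtype markers past the threshold were 0 in each alternative, which says nothing of stability, since so few mice keep a single marker from passing. The difference in Ebf1 share ranged from 0.235 percentage points, with at least 1 UMI, to 3.49. The cause was not tested for those that moved.

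The difference in the share of GABAergic amacrine cells changed sign in 5 of 15 alternatives. It was -0.0677 as a share of amacrine cells and -0.642 as that share without S04, S05 and S07, and -1.47 to 1.21 percentage points with 1 mouse left out. The log2 fold change of Gad1 was 0.0035 with the higher Gad threshold and 0.0136 without the cells highest in rod RNA. That of Gad2 was 0.0048 without S04, S05 and S07 and 0.0061 with DESeq2 there. That of Slc32a1 was 0.068 with the Xist covariate, 0.133 with thinned counts, 0.0412 without S02 and 0.0289 without S05. With 1 mouse left out it ranged from -0.21 to 0.04. For Trpm1 the log2 fold change was 0.21 without the 5% of cells with the most UMIs. The cause was not tested for any of these. The 10 genes named for dKO kept their sign in the alternatives that could fit them.

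No paired analysis was possible because control mice were not matched to dKO mice in the labels. With 3 to 5 mice per group, and 26 cells in S04, differences below the spread between mice could not be told from it. Tamoxifen was given to dKO mice alone, so it cannot be told apart from the deletion. Rod RNA reached 0.509% of UMIs in these cells and differed between mice. The cells were chosen by thresholds on 9 genes, so levels of these genes describe the choice. Subtype shares count cells with 2 or more UMIs and depend on depth.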

Other observations

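At equal depth, the genes whose UMIs varied most among GABAergic amacrine cells, by variance over mean, were Kcnip4 at 36.7, Pcdh9 at 32.0, Kirrel3 at 30.4, Hs6st3 at 26.0 and Nrg1 at 25.7. Kcnip4 modulates Kv4 potassium channels, Pcdh9 and Kirrel3 are adhesion proteins, Hs6st3 sulfates heparan chains and Nrg1 is a neuregulin. None of the 5 is among the 22 subtype markers, and 847 cells carried none of those markers.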
